A study of Mus musculus with 15 samples.

Results

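Type I interferon-stimulated genes were examined in mouse brown adipose tissue, the fat depot that burns fuel to produce heat, in a bulk RNA-sequencing comparison of 8 vehicle libraries and 7 libraries labelled BPS. BPS is bisphenol S, a plastics chemical that has taken the place of bisphenol A in many products, and the title of the series asks about an environmental dose of it in relation to aging of this tissue. Dose, duration, age, sex and strain are not given in the sources used here. Replicate numbers follow the sample titles, which for BPS run over 1, 2, 3, 4, 5, 6 and 8. The members were 34 genes chosen by symbol, and 32 of them had a row among the 16774 genes of the deposited table. Mx1 and Mx2 are not analysed here. Abundance was given as FPKM, a fragment count scaled for transcript length and for the total of the library, so that levels of different genes can be set side by side.

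Type I interferons are secreted antiviral proteins that bind the receptor pair Ifnar1 and Ifnar2 on nearly every cell type. The bound receptor activates the kinases Jak1 and Tyk2, and phosphorylated Stat2 joins Irf9 in a complex named ISGF3. ISGF3 enters the nucleus, binds the interferon-stimulated response element in promoters, and switches on sensors, effectors and feedback inhibitors of the response. Many of these genes keep a low level without infection, which is taken to reflect a tonic interferon signal.

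Promoters of 4 members are shown because these genes have the response element motif. Isg15, Ifit1 and Bst2 behaved alike in the BPS libraries, and Rsad2 differed from them. The windows come from RefSeq on GRCm38.p6, run 5′ to 3′ on the strand of the gene from 250 bases before to 50 bases after the start site, and carry matches to GAAANNGAAA on either strand in capitals, where overlapping matches run together. Isg15 lies on the minus strand of chromosome 4 (window chr4:156200769-156201068), Ifit1 on the plus strand of chromosome 19 (window chr19:34640639-34640938), Bst2 on the minus strand of chromosome 8 (window chr8:71537423-71537722) and Rsad2 on the minus strand of chromosome 12 (window chr12:26456403-26456702).
Isg15: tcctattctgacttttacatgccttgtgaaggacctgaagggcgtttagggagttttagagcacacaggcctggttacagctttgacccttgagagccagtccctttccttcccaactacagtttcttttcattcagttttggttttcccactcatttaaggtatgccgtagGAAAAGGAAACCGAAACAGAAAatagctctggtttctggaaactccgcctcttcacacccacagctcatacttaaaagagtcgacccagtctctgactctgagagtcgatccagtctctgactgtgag
Ifit1: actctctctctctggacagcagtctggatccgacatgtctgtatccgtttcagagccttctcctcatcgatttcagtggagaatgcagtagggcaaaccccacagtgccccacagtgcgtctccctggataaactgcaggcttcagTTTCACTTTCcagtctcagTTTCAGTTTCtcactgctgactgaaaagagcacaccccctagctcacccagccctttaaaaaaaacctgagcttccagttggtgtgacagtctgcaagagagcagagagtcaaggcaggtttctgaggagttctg
Bst2: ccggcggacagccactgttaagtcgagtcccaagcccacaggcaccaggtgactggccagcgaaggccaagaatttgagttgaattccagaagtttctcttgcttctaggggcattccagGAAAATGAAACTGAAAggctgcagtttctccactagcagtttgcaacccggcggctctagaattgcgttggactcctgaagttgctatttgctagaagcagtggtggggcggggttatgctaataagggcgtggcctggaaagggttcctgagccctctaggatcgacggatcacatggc
Rsad2: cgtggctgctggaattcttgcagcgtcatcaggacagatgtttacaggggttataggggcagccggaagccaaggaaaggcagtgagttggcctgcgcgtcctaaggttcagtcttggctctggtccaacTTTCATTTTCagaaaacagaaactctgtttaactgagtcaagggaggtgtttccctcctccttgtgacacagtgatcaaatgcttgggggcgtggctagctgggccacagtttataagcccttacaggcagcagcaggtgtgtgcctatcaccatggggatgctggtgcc

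The Isg15 window had 3 overlapping matches, with left ends 78, 72 and 66 bases before the start site (written -78, -72 and -66). In Ifit1 the matches began at -104 and -85, in Bst2 at -130 and -124, and in Rsad2 at -120. A window was found for 25 members, and 13 of them (52.0%) had at least 1 match, against 1079 of 27025 genes (3.99%) with a window of the same length. The motif was in 6 of the 12 with levels in BPS replicates 4, 5, 6 and 8 all below every vehicle library, a pattern described next, and in 7 of the 13 other members. A match is a string of letters and not evidence of binding. Several members are neighbours: Ifit1, Ifit2, Ifit3 and Ifit3b lie on chromosome 19 between 34550550 and 34650009, Oas1a, Oas2 and Oas3 on chromosome 5 between 120730333 and 120907544, and Parp9, Dtx3l and Parp14 on chromosome 16 between 35831892 and 35972621. Irf9 lies on chromosome 14 at 55603985 to 55610030, Stat2 on chromosome 10 at 128270498 to 128292853 and Usp18 on chromosome 6 at 121245906 to 121270917 (RefSeq, GRCm38.p6).

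The BPS libraries were not alike. The mean level of 4 Y-linked genes was 82.9% to 115% of its vehicle mean in the vehicle libraries and 96.9%, 102% and 92.0% in BPS replicates 1, 2 and 3. In BPS replicates 4, 5, 6 and 8 it was 0.437%, 53.5%, 74.5% and 26.4%, below every vehicle library. These 4 libraries stand apart in a measure that uses no member, so changes are given with and without them. No vehicle library had such a low level, so in all 15 libraries this difference is mixed with the BPS label. Its part in the changes cannot be fully told apart from that of BPS, and its source was not tested. The 8 brown adipocyte markers had rows and none was listed at 0, with summed levels of 10360 to 22950 FPKM in the vehicle libraries, 14190 to 20850 in BPS replicates 1, 2 and 3, and 1425 to 13120 in the other 4. Each sample carries its own identifier, but nothing else says that the libraries came from separate animals, so p-values reflect library-to-library spread, which may be partly technical. No counts were used, so the depth in reads is unknown.

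No member passed the test between BPS and vehicle. Of the 32 members with a row, 31 were tested by limma on log2(FPKM + 1) with p-values adjusted over all 12156 genes of at least 1 FPKM in at least 7 libraries. The remaining one, Oas3, was below that filter at 0.07 to 0.34 FPKM. None of the 31 had an adjusted p under 0.05 in either direction, where 0.411% of all tested genes passed. At an unadjusted p under 0.05, 7 members were lower in BPS (6.7% of all tested genes were) and 0 were higher (16.4% of all tested genes were). Of the 31, 24 had a negative log2 change, against 41.5% of all tested genes, and the median change was -0.20 against 0.05 over all tested genes. In the authors' deposited table, 5.74% of genes had a q-value under 0.05 and none of the members did; the lowest, 0.101, was that of Ifit1 with a log2 ratio of -0.76.

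Within the BPS group the members split into low and high libraries. In BPS replicates 4, 5, 6 and 8, 15 of the 31 tested members lay below every vehicle library, where 2.99% of all tested genes did: Irf9, Stat2, Ifit1, Ifit2, Ifit3, Oas1a, Oas2, Oasl1, Oasl2, Isg15, Usp18, Cmpk2, Bst2, Ifi44 and Rtp4. None lay above every vehicle library in all 4, against 9.8% of all tested genes. In 24 members all 4 libraries lay below BPS replicates 1, 2 and 3 (11.2% of all tested genes). No member had BPS replicates 1, 2 and 3 all above the vehicle libraries (1.92% of all tested genes), and none had all 7 BPS libraries below them (0.107%). The median level of the members was 62.0% of the vehicle mean in the 4 libraries and 114% in BPS replicates 1, 2 and 3, against medians of 105% and 99.9% over all tested genes.

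**Figure D1:**
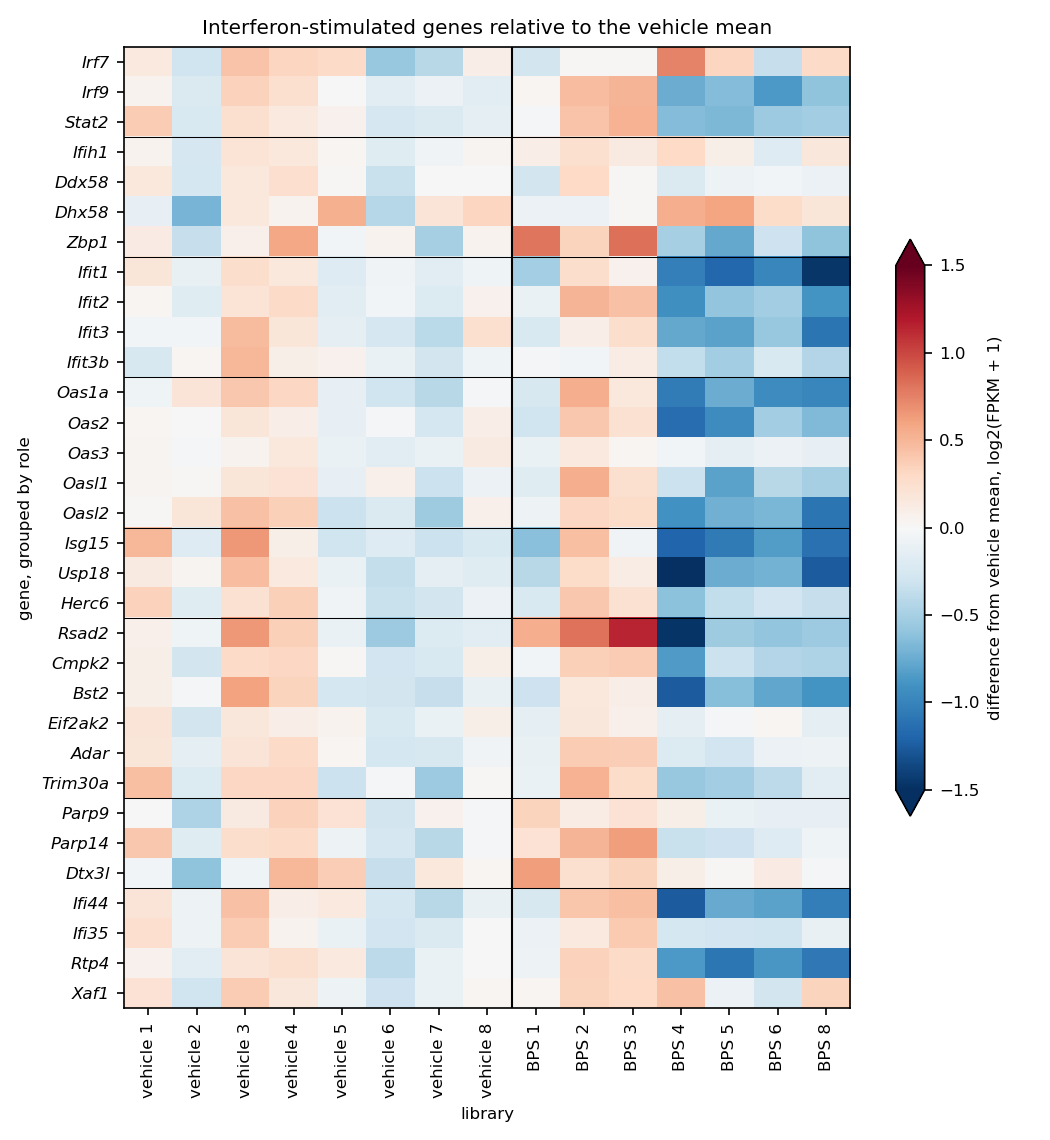
Each row is 1 of the 32 members with a row in the table, grouped by role, and each column 1 of the 15 libraries; colour gives the difference of log2(FPKM + 1) from the vehicle mean of that gene, with values past 1.5 in either direction drawn at the end of the scale. Blue runs through most rows in BPS replicates 4, 5, 6 and 8, with Irf7, Ifih1, Dhx58 and Xaf1 among the rows where it does not.

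The same split was visible in the mean over the 32 members. The mean log2(FPKM + 1) was 3.34 ± 0.206 in the vehicle libraries (SD, n = 8), between 3.10 and 3.64. It was 3.27, 3.66 and 3.62 in BPS replicates 1, 2 and 3, and 2.80, 2.88, 2.92 and 2.85 in BPS replicates 4, 5, 6 and 8, so that only the latter fell outside the vehicle range on the low side. Vehicle libraries also differed among themselves. Vehicle replicates 3 and 4 had 30 and 31 of 32 members above the median of the 15 libraries, while vehicle replicates 6 and 7 had 5 and 3. The SD of log2(FPKM + 1) was larger in BPS than in vehicle for 25 of the 31 tested members (80.6%), against 49.6% of all tested genes.

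Some marker lists of other cells moved with this split and others did not. Summed macrophage and neutrophil levels each set 1 of the BPS sets apart from the vehicle libraries. The brown adipocyte, adipocyte, fibroblast and endothelial sums differed between the BPS sets, but overlapped the vehicle libraries in both. For the brown adipocyte markers, the lowest sum in BPS replicates 4, 5, 6 and 8 was 1425 FPKM, below the lowest vehicle sum of 10360. T cell, NK cell, B cell, monocyte, dendritic cell and skeletal muscle sums overlapped between the BPS sets and with vehicle. The 5 general adipocyte markers summed to 29640 to 49900 FPKM in the vehicle libraries, 46370 to 47000 in BPS replicates 1, 2 and 3, and 48260 to 67460 in BPS replicates 4, 5, 6 and 8, with 2 of the 5 above every vehicle library in all 4. The 5 fibroblast markers summed to 263.4 to 550.6, 230.8 to 302.9 and 373.1 to 686.9 FPKM in that order, and neither list had a marker at 0. The 6 endothelial markers summed to 254.6 to 498.5 FPKM in the vehicle libraries, 349.4 to 545.8 in BPS replicates 1, 2 and 3, and 197.2 to 331.2 in BPS replicates 4, 5, 6 and 8, with none at 0. The 11 macrophage markers summed to 242.8 to 370.8, 245.0 to 293.8 and 450.7 to 736.8 FPKM in the same order, also with none at 0. This sum was thus highest in the libraries where the members were lowest. Of the 11 markers, 7 lay above every vehicle library in all 4. Cd14, Cd163, Mertk and Fcgr1 did not, and Fcgr1 averaged 99.5% of its vehicle mean there. The 6 neutrophil markers, of which Ly6g and Camp were at 0 in at least 1 library, summed to 45.1 to 87.6, 139.6 to 218.5 and 42.5 to 74.6 FPKM. The 5 general leukocyte markers overlapped among the sets, at 72.5 to 134.8, 90.9 to 104.7 and 50.3 to 115.2 FPKM. In bulk tissue, fewer cells of a type and less RNA per cell cannot be told apart, and the part of the macrophage, neutrophil, fibroblast, adipocyte and brown adipocyte levels in the result was not tested. With the leukocyte, muscle or Y-linked level as a term in limma, 0 members passed. With the endothelial level as a term, an alternative chosen after seeing the data, 6 members passed as lower in limma, Isg15 (adjusted p = 0.0107), Bst2 (0.0163), Usp18 (0.0166), Ifit1 (0.0194), Oas2 (0.0411) and Ifi44 (0.0485), where 2.14% of all tested genes passed as lower. The endothelial level averaged nearly the same in vehicle and BPS, so this term could hardly move the size of a change (Ifit1 -0.68 against -0.69). It therefore does not settle the part of the endothelial level in the result.

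**Figure D2:**
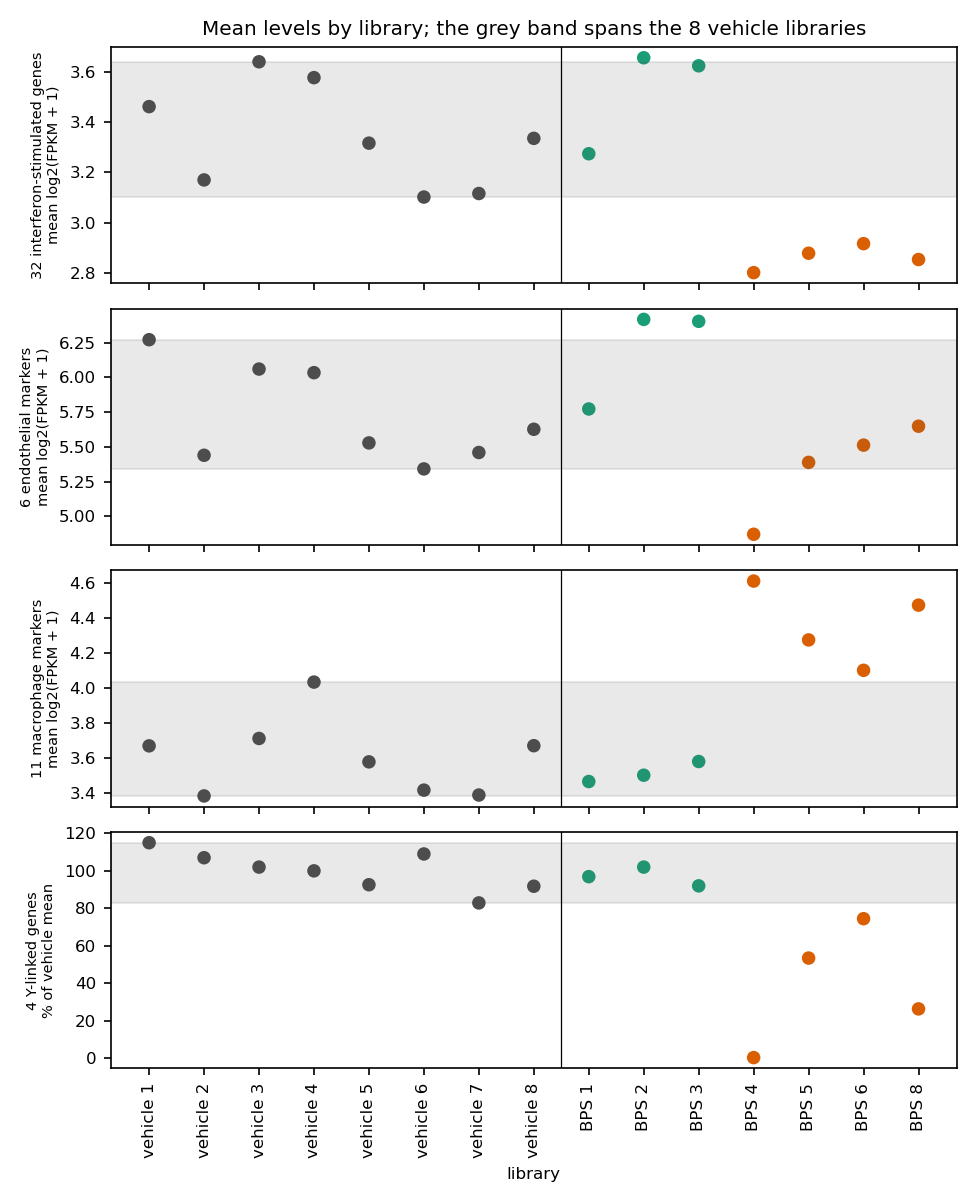
From top to bottom, the panels give per library the mean log2(FPKM + 1) of 32 members, of 6 endothelial and of 11 macrophage markers, and the level of 4 Y-linked genes as a percent of the vehicle mean; grey points are vehicle, green BPS replicates 1, 2 and 3, orange BPS replicates 4, 5, 6 and 8, and the band spans the vehicle libraries. The orange points lie below the band for the members (2.80 to 2.92) and for the Y-linked genes, and above it for the macrophage markers.

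Among the transcription factors of the response, Irf9 and Stat2 followed the split and Irf7 did not. Irf9, the DNA-binding subunit of ISGF3, ran from 17.1 to 25.6 FPKM in the vehicle libraries, with a median of 19.3. In BPS replicates 1, 2 and 3 it was at 20.4, 27.8 and 28.9 FPKM, and in BPS replicates 4, 5, 6 and 8 at 11.5, 12.4, 10.5 and 12.8 FPKM. The 4 were the lowest of all 15 libraries, and 2 of the other 3 were the highest. Its log2 change was -0.27 ± 0.20 (limma SE, adjusted p = 0.43) in all 15 libraries and 0.33 ± 0.14 (adjusted p = 0.587) without the 4, so the sign depended on them. Stat2, its signalling partner, ran from 12.7 to 20.3 FPKM in vehicle, with a median of 14.9. Its levels were 15, 20.9 and 22.4 FPKM in BPS replicates 1, 2 and 3 and 9.38, 9.16, 10.2 and 10.4 FPKM in the 4, again below every vehicle library, with log2 changes of -0.21 ± 0.19 (limma, adjusted p = 0.505) and 0.31 ± 0.16 (0.654) without them. Irf7, which amplifies interferon production and is itself interferon-induced, ran from 13.5 to 27.9 FPKM in vehicle with a median of 22.4. It stood at 16.8, 20.7 and 20.7 FPKM in BPS replicates 1, 2 and 3 and at 34.9, 25.9, 15.9 and 25.2 FPKM in the other 4, which overlapped the vehicle range except for BPS replicate 4 above it. Its log2 change was 0.11 ± 0.18 (limma, adjusted p = 0.735), and -0.08 ± 0.21 (0.912) without the 4.

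Among the 4 sensors of foreign nucleic acid, none lay below the vehicle libraries in all 4 of BPS replicates 4, 5, 6 and 8. Ifih1, the MDA5 receptor for long double-stranded RNA, had the smallest p of the group. It ran from 5.16 to 7.43 FPKM in vehicle with a median of 6.52, and stood at 6.82, 7.67 and 7.04 in BPS replicates 1, 2 and 3 and at 7.99, 6.77, 5.39 and 7.27 in the 4. These overlapped, with log2 changes of 0.12 ± 0.09 (limma, adjusted p = 0.398) and 0.16 ± 0.11 (0.715) without the 4. Ddx58, the RIG-I receptor, averaged 91.1% of its vehicle mean in the 4 libraries and 101% in BPS replicates 1, 2 and 3. Dhx58, the LGP2 regulator of both receptors, averaged 135% and 91.4%. It was the 1 member in which all 4 lay above BPS replicates 1, 2 and 3, where 2797 of all 12156 tested genes did so. Zbp1, a sensor of Z-form nucleic acid that can trigger cell death, went the other way, at 60.9% and 167%. Its 3.09, 2.41, 3.66 and 2.81 FPKM in the 4 lay below the 9.08, 6.26 and 9.25 FPKM of BPS replicates 1, 2 and 3, with the vehicle libraries at 3.11 to 7.64.

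The IFIT proteins bind viral RNA and block its translation, and the family held the member of largest change. Ifit1, which recognises RNA caps that lack host methylation, ran from 4.43 to 6.45 FPKM in vehicle, with a median of 4.96. It stood at 3.36, 6.48 and 5.53 FPKM in BPS replicates 1, 2 and 3, and at 2.06, 1.76, 2.17 and 1.27 FPKM in the 4 libraries of low Y-linked level. BPS replicate 1 thus also lay below every vehicle library. The log2 change was -0.69 ± 0.22 (limma, adjusted p = 0.115) in all 15 libraries and -0.06 ± 0.16 (adjusted p = 0.915) without the 4. Ifit3, which stabilises Ifit1 in complexes described for the human proteins, ran from 13.2 to 25.1 FPKM in vehicle with a median of 17.3. Its levels were 15.1, 19.2 and 21.5 FPKM in BPS replicates 1, 2 and 3 and 10.04, 9.78, 11.6 and 7.82 FPKM in the 4, below every vehicle library, with a log2 change of -0.44 ± 0.19 (limma, adjusted p = 0.191), or 0.05 ± 0.17 (0.937) without them. Ifit3b, its near copy, ran from 3.81 to 7.17 FPKM in vehicle with a median of 4.73, and stood at 4.75, 4.66 and 5.25 in BPS replicates 1, 2 and 3 and 3.50, 3.03, 3.97 and 3.26 in the 4. There 1 of the 4 reached into the vehicle range, and the log2 change was -0.21 ± 0.12 (limma, adjusted p = 0.297), or 0.02 ± 0.14 (0.968) without them. Of the stretches of 100 bases in Ifit3 transcripts, 31.7% also occur in Ifit3b, so the division of reads between these genes is uncertain. Ifit2 averaged 54.3% of its vehicle mean in the 4 libraries and 126% in BPS replicates 1, 2 and 3.

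**Figure D3:**
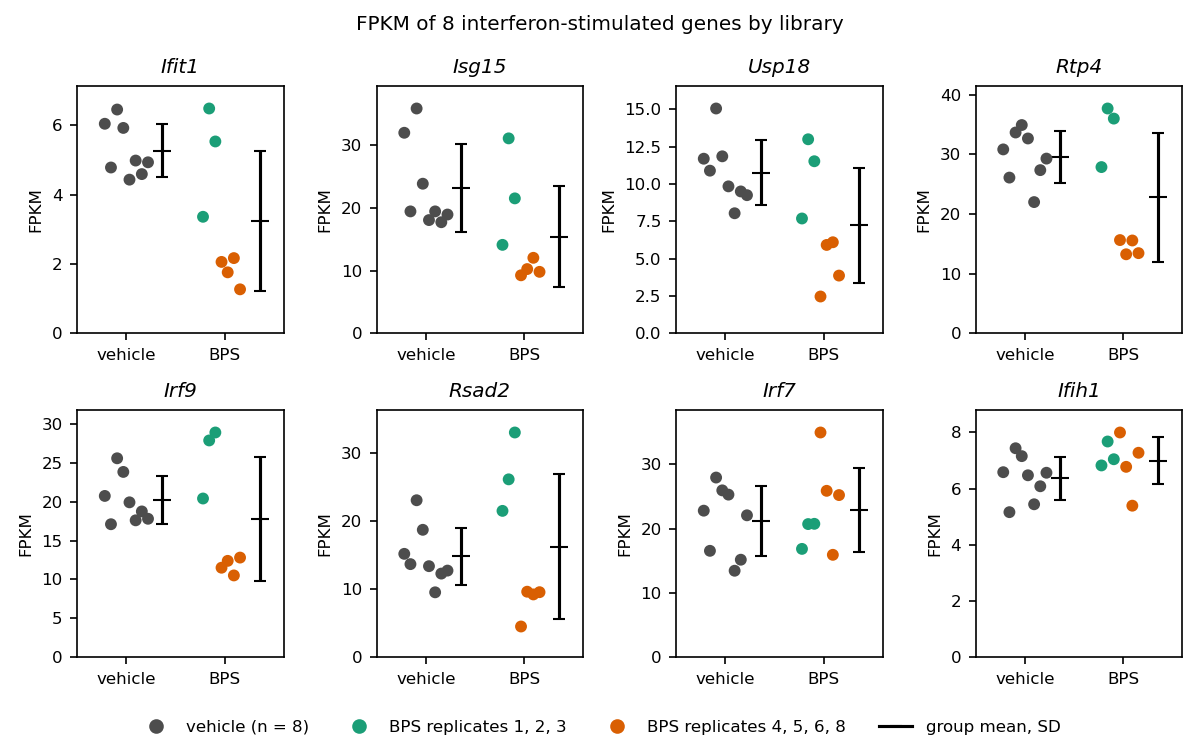
FPKM of 8 members in each vehicle (grey), BPS replicate 1, 2 and 3 (green) and BPS replicate 4, 5, 6 and 8 (orange) library, with the mean and SD of each group as a black bar. For Ifit1, Isg15, Usp18, Rtp4 and Irf9 the orange points lie below every grey point, and for Irf7 and Ifih1 they overlap them.

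The oligoadenylate synthetases, listed here together with Oasl1, sense double-stranded RNA and make oligoadenylates that activate the nuclease RNase L. Oas2 had the smallest p of the group and ran from 4.54 to 6.5 FPKM in vehicle, with a median of 5.70. It stood at 4.37, 7.74 and 6.75 FPKM in BPS replicates 1, 2 and 3 and at 2, 2.44, 3.62 and 3.19 FPKM in the 4. The 4 were the lowest libraries, and BPS replicate 1 also lay under the vehicle range. Its log2 change was -0.42 ± 0.20 (limma, adjusted p = 0.21), or 0.11 ± 0.14 (0.821) without the 4. Oas1a, Oasl1 and Oasl2 showed the same order, at 42.4%, 56.7% and 49.6% of the vehicle mean in the 4 libraries and 114%, 124% and 112% in BPS replicates 1, 2 and 3. Oasl1, which in mouse restrains translation of Irf7, was the lowest of the tested genes of this list at 0.81 to 3.59 FPKM over all libraries. Of the stretches of 100 bases in Oas1a, 40.9% also occur in Oas1g.

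Usp18 and Isg15 had the next largest changes after Ifit1, which did not pass either. Isg15, a ubiquitin-like protein that is attached to other proteins, ran from 17.7 to 35.8 FPKM in vehicle, with a median of 19.4. It stood at 14.1, 31.01 and 21.5 FPKM in BPS replicates 1, 2 and 3 and at 9.24, 10.2, 12.02 and 9.79 FPKM in the 4. As with Ifit1, BPS replicate 1 joined the 4 below the vehicle range. The log2 change was -0.63 ± 0.24 (limma, adjusted p = 0.15), and -0.08 ± 0.25 (0.93) without the 4. Usp18, which removes Isg15 from proteins and also holds the receptor subunit Ifnar2 in check, ran from 8.04 to 15.1 FPKM in vehicle, with a median of 10.4. Its levels were 7.69, 13.0 and 11.5 FPKM in BPS replicates 1, 2 and 3 and 2.47, 5.92, 6.10 and 3.87 FPKM in the 4, so 5 of 7 BPS libraries lay below the vehicle range. The log2 change was -0.64 ± 0.25 (limma, adjusted p = 0.156), or -0.01 ± 0.18 (0.983) without the 4. Herc6, the main ligase for Isg15 in mouse, averaged 68.8% and 112% of its vehicle mean in the 4 and in BPS replicates 1, 2 and 3.

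The other antiviral effectors ranged from strong to no separation. Bst2, or tetherin, which holds budding virus at the cell surface, was the most abundant member, at 90.4 to 175.0 FPKM in vehicle with a median of 110.3. It stood at 92.9, 128.7 and 123.4 FPKM in BPS replicates 1, 2 and 3 and at 48.1, 73.9, 66.6 and 61.6 FPKM in the 4, which did not overlap the vehicle libraries. The log2 change was -0.51 ± 0.21 (limma, adjusted p = 0.165), and -0.02 ± 0.20 (0.981) without the 4. Rsad2, or viperin, which makes a chain-terminating nucleotide, is given in full here after its values were seen, and averaged 55.6% of its vehicle mean in the 4 libraries and 181% in BPS replicates 1, 2 and 3. It ran from 9.56 to 23.1 FPKM in vehicle with a median of 13.6, and stood at 21.5, 26.2 and 33.0 FPKM in BPS replicates 1, 2 and 3 and at 4.54, 9.65, 9.25 and 9.58 FPKM in the 4. The groups overlapped and the change was -0.09 ± 0.33 (limma, adjusted p = 0.888) in all libraries, against 0.84 ± 0.21 (adjusted p = 0.237) without the 4. Cmpk2, a nucleotide kinase whose gene neighbours Rsad2, averaged 66.0% and 119% of its vehicle mean in the 4 and in BPS replicates 1, 2 and 3. Eif2ak2, the kinase PKR that halts translation, averaged 94.3% and 103%, and Adar, which edits double-stranded RNA, 87.2% and 118%. Trim30a averaged 71.2% and 118%.

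Dtx3l and Parp9 form a ubiquitin ligase complex, and Parp14 is a related ADP-ribosyltransferase. Dtx3l had the smallest p of these, at 3.67 to 9.08 FPKM in vehicle with a median of 6.09. It stood at 9.96, 7.42 and 7.94 FPKM in BPS replicates 1, 2 and 3, and at 6.57, 6.20, 6.73 and 5.99 FPKM in the 4. All 4 lay within the vehicle range, and the log2 change was 0.20 ± 0.15 (limma, adjusted p = 0.417), or 0.40 ± 0.20 (0.653) without them. Parp9 and Parp14 averaged 94.0% and 82.3% of their vehicle means in the 4 and 116% and 139% in BPS replicates 1, 2 and 3. Dtx3l and Parp9 overlap on opposite strands over 682 bases, and the sources used here do not give strandedness, so reads in the overlap cannot be assigned to either.

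Of the remaining members, Rtp4 separated cleanly. Rtp4, a receptor-transporter protein with antiviral activity, ran from 21.99 to 34.9 FPKM in vehicle, with a median of 30.04. It stood at 27.9, 37.7 and 35.97 FPKM in BPS replicates 1, 2 and 3 and at 15.6, 13.3, 15.6 and 13.4 FPKM in the 4. The 4 lay below every other library, and the log2 change was -0.48 ± 0.22 (limma, adjusted p = 0.213), or 0.19 ± 0.14 (0.74) without them. Ifi44 had the lowest share of all tested members in the 4, at 31.3% of its vehicle mean (0.44 to 1.03 FPKM against 1.57 to 3.64 in vehicle), and 123% in BPS replicates 1, 2 and 3. Ifi35 averaged 83.1% and 111%. Xaf1, a binding partner of the apoptosis inhibitor Xiap, averaged 109% and 117% and overlapped the vehicle libraries.

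Without BPS replicates 4, 5, 6 and 8, the direction of most members turned but none passed the test. Over the 11 libraries left, 0 of 31 members had an adjusted p under 0.05 in limma, where 0.271% of all tested genes passed. Of the 31, 25 had a positive change, against 51.6% of all tested genes, and the median was 0.17 against 0.01. At an unadjusted p under 0.05, 4 members were higher (5.15% of all tested genes were) and 0 lower (350 of all 12156 tested genes were). These were Rsad2 and Zbp1 (0.65 ± 0.20, limma adjusted p = 0.346), Parp14 (0.45 ± 0.17, 0.507) and Irf9.

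**Figure D4:**
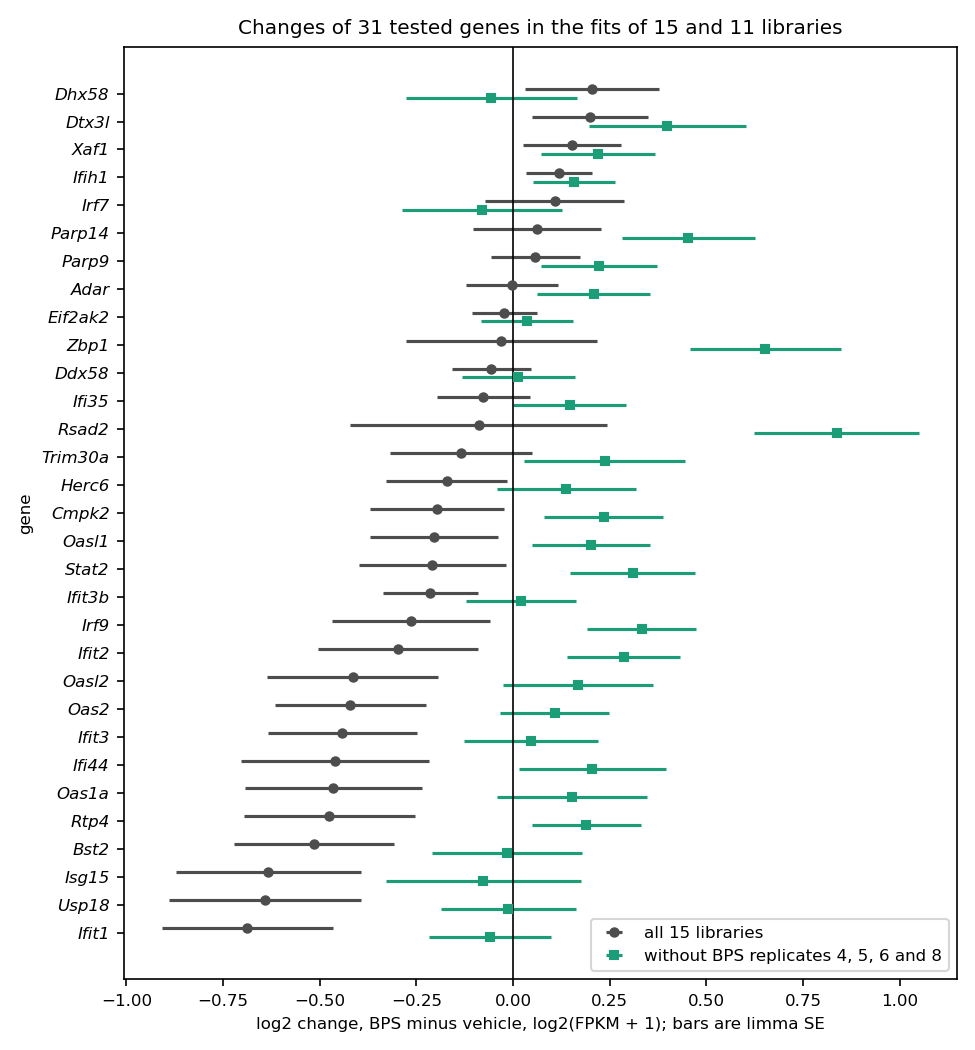
The log2 change (BPS minus vehicle) of the 31 tested members with its limma SE, in all 15 libraries (grey circles) and without BPS replicates 4, 5, 6 and 8 (green squares), ordered by the grey value. Of the grey points 24 lie below 0, and of the green points 25 lie above it.

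Upstream of the members, the receptor and kinase genes did not share their split. None of the 6 genes of this list passed (limma; 2 were higher at an unadjusted p under 0.05, where 16.4% of all tested genes were), with a median change of 0.15. Ifnar1 ran from 6.85 to 11.4 FPKM in vehicle and 10.4 to 12.1 in BPS, with a log2 change of 0.25 ± 0.10 (limma, adjusted p = 0.162), or 0.24 ± 0.14 (0.687) without the 4. Ifnar2 averaged 119.0 ± 30.3 FPKM in vehicle (SD, n = 8) and 121.0 ± 16.9 in BPS (n = 7), a change of 0.06 ± 0.16 (limma, adjusted p = 0.847), or 0.21 ± 0.21 (0.785) without the 4. Jak1 stood at 28.5 to 37.8 FPKM in BPS replicates 4, 5, 6 and 8, above the 20.6 to 24.6 FPKM of the vehicle libraries and the 22.3 to 23.9 FPKM of BPS replicates 1, 2 and 3 (change 0.25 ± 0.10, limma adjusted p = 0.15; 0.02 ± 0.07 and 0.951 without the 4). Tyk2 averaged 10.4 ± 1.75 and 9.03 ± 2.26 FPKM in vehicle and BPS (-0.20 ± 0.14, limma adjusted p = 0.39; 0.03 ± 0.15 and 0.958 without the 4). Of the 11 type I interferon ligand genes listed, only Ifnk had a row, with 0.17 FPKM in vehicle replicate 5 and 0 in the other 14 libraries; Ifnb1 and the remaining ligands are not analysed here.

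Of the other pathway genes, 1 passed. Nlrc5, the activator of MHC class I genes, listed here with the type II interferon genes, averaged 4.48 ± 0.909 FPKM in vehicle (SD, n = 8) and 7.26 ± 1.25 in BPS (n = 7). It rose by 0.60 ± 0.12 on the log2 scale (limma, adjusted p = 0.0473; 0.346% of all tested genes passed as higher), with adjusted p between 0.0154 and 0.325 over the alternative settings and 0.3 without BPS replicates 4, 5, 6 and 8. Leaving out any 1 library other than vehicle replicates 1 and 4 and BPS replicate 2 ended the call (limma, adjusted p from 0.0428 to 0.112 over the 15 libraries left out). In the list of inducing sensors, adaptors and factors, 0 of 16 tested genes passed (limma; 3 were higher at an unadjusted p under 0.05, against the same 16.4%), with a median change of 0.10, or 0.08 without the 4. Irf1, a factor induced by both interferon types, stood at 27.8 to 45.2 FPKM in vehicle, at 56.0, 56.9 and 72.8 FPKM in BPS replicates 1, 2 and 3, and at 36.7 to 51.7 FPKM in the 4 (0.46 ± 0.14, limma adjusted p = 0.113; 0.77 ± 0.15 and 0.0589 without the 4). Samhd1, a nucleotide hydrolase, had a change of 0.39 ± 0.14 (limma, adjusted p = 0.144), Tlr3, the endosomal receptor for double-stranded RNA, 0.21 ± 0.08 (0.158), and Irf3, the factor that starts interferon transcription, 0.10 ± 0.08 (0.403). Without the 4 these were 0.70 ± 0.15 for Samhd1 (limma, adjusted p = 0.13), 0.20 ± 0.12 for Tlr3 (0.678) and 0.21 ± 0.10 for Irf3 (0.644).

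Negative regulators and further interferon-stimulated genes also had no call in all 15 libraries. Of 9 tested negative regulators none passed (limma; 2 were higher and 2 lower at an unadjusted p under 0.05, where 16.4% and 6.7% of all tested genes were). Ptpn11, a phosphatase, averaged 27.1 ± 3.03 FPKM in vehicle and 31.7 ± 3.93 in BPS (0.22 ± 0.09, limma adjusted p = 0.169), Socs3, an inhibitor of JAK kinases, 2.94 ± 0.887 and 4.93 ± 2.69 (0.52 ± 0.22, 0.177), and Ptpn2, another phosphatase, 25.7 ± 3.11 and 21.8 ± 3.35 (-0.23 ± 0.10, 0.189). Without the 4 the changes were 0.07 ± 0.11 for Ptpn11 (limma, adjusted p = 0.837), 0.61 ± 0.19 for Socs3 (0.37) and -0.07 ± 0.11 for Ptpn2 (0.856). Among 46 other tested interferon-stimulated genes none passed (limma, with 11 higher and 3 lower at an unadjusted p under 0.05, to be read against the same shares), and the median change was 0.03. In 2 of the 46, BPS replicates 4, 5, 6 and 8 all lay below the vehicle libraries (2.99% of all tested genes did), against 15 of the 31 members. In 14 of the 46, all 4 lay below BPS replicates 1, 2 and 3 (11.2% of all tested genes), against 24 of the members. Both lists were chosen with earlier results of these data known. Of these 46 genes, those of smallest p were Gm4951, an interferon-inducible GTPase (0.65 ± 0.15, limma adjusted p = 0.0718), Trim21, an antibody receptor of the cytosol (0.36 ± 0.09, 0.0894), and Cxcl10, a chemokine for T cells (-0.60 ± 0.17, 0.0962). Without the 4 they were at 0.91 ± 0.17 (limma, adjusted p = 0.0619), 0.52 ± 0.12 (0.137) and -0.57 ± 0.21 (0.505). Without the 4 libraries, Tnfsf10, the death ligand TRAIL, was the 1 gene of this list that passed. It stood at 20.3, 19.9 and 28.9 FPKM in BPS replicates 1, 2 and 3 against 6.84 to 11.6 in vehicle (1.28 ± 0.16, limma adjusted p = 0.00419), and at 5.11 to 8.65 FPKM in the 4. Of the type II interferon genes, Ifngr1 ran from 51.7 to 107.7 FPKM in vehicle and from 76.9 to 204.4 FPKM in BPS (0.71 ± 0.22, limma adjusted p = 0.109; 0.18 ± 0.19 and 0.787 without the 4), with the 4 at 110.8 to 204.4 FPKM above every vehicle library. Ifngr2 averaged 13.9 ± 4.39 and 10.9 ± 2.13 FPKM (-0.30 ± 0.17, limma adjusted p = 0.294; -0.50 ± 0.23 and 0.614 without the 4).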

How the data were processed

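Transcripts of brown adipose tissue were measured in 8 vehicle and 7 BPS libraries, grouped by the treatment label. Total RNA was taken up in TRIzol, enriched for poly(A) on beads and reverse transcribed from random primers, per the labels' protocols. The submitters' processing notes name RSEM 1.3.1, HISAT2 2.1.0, DESeq2 1.4.5, Bowtie2 and the build GRCm38.p6. The authors deposited FPKM for each library, group means and per gene a log2 ratio with its p-value and q-value. FPKM divides by the library total, so abundant transcripts that rise lower all others.

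The FPKM were tested here with limma 3.58.1 in R 4.3.3, on the log2(FPKM + 1) scale with a robust, intensity-trended spread, a scale that understates changes of low genes. The filter of 1 FPKM in 7 or more libraries left 12156 genes, Benjamini-Hochberg adjustment was used at 0.05, and the script was tested on simulated data. The members and the 103 other pathway genes, of which 92 had a row and 82 were tested, were chosen with earlier results of these data known. Members were given by library where they had the smallest p of their role, the largest changes or a preset name; pathway genes where they passed or had the smallest p of their list, or were preset. Jak1 and Tyk2 were among the preset; 1 gene that the rule names is not reported here. Tnfsf10, Rsad2 and Zbp1 were chosen after their values were seen. Transcript overlaps were read from GENCODE. Of the identifiers, 16727 matched RefSeq, which gave coordinates. Alternatives were 2 normalizations, 2 settings of the spread, other filters and pseudocounts, a replicate term, covariates, and libraries left out.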

Additional observations from a re-analysis of the deposited data

Results flagged for a closer look

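Of 64 groups of member values checked for 1 library far from the others, 2 stood out, where chance marks about 1 in 20 groups. Ifih1 was at 5.39 FPKM in BPS replicate 6, with the other BPS libraries between 6.77 and 7.99. Ifit3b was at 7.17 FPKM in vehicle replicate 3, with the other vehicle libraries between 3.81 and 5.16; reads shared with Ifit3 make its own level uncertain.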

How the results depend on the processing

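The members and the direction of most depended on 4 BPS libraries. No member passed (limma) in 29 of the 30 alternatives, and 6 passed as lower with the endothelial score as a covariate, which was chosen after seeing the data. Without BPS replicates 4, 5, 6 and 8 the median change of the members was 0.168, against -0.197; it was -0.003 with the Y-linked covariate, -0.095 with a pseudocount of 5 and -0.112 over the 24 members left by a filter of 5 FPKM. In the fit without BPS replicates 4, 5, 6 and 8 the changes were of opposite sign for Irf7 (-0.081), Irf9 (0.333), Stat2 (0.309), Ddx58 (0.013), Dhx58 (-0.056), Zbp1 (0.652), Ifit2 (0.286), Ifit3 (0.046), Ifit3b (0.020), Oas1a (0.152), Oas2 (0.107), Oasl1 (0.201), Oasl2 (0.168), Herc6 (0.137), Rsad2 (0.837), Cmpk2 (0.234), Eif2ak2 (0.036), Adar (0.209), Trim30a (0.237), Ifi44 (0.205), Ifi35 (0.146) and Rtp4 (0.189). With a covariate for the Y-linked level they were so for Irf7 (-0.107), Stat2 (0.007), Zbp1 (0.238), Herc6 (0.009), Rsad2 (0.432), Cmpk2 (0.051), Eif2ak2 (0.024), Adar (0.090), Trim30a (0.052) and Ifi35 (0.010). Zbp1 was at 0.006 with a pseudocount of 5, and with the muscle and leukocyte scores Zbp1 was at 0.051 and 0.003, Parp9 at -0.001 with muscle, and Adar at 0.016 with leukocyte. Without the 3 vehicle libraries high in muscle markers, vehicle replicates 2, 6 and 8, Irf7 was at -0.046, Parp9 at -0.095 and Parp14 at -0.030. The cause was not tested.

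Leaving out each library in turn gave 0 members called throughout, 0 to 1 pathway genes called, and medians of the members from -0.28 (without BPS replicate 3) to -0.097 (without BPS replicate 4). Signs changed for Zbp1 (-0.174 to 0.091), Rsad2 (-0.294 to 0.142; above 0 without vehicle replicate 3 or BPS replicate 4), Eif2ak2 (-0.063 to 0.004), Adar (-0.067 to 0.043), Parp9 (-0.010 to 0.106) and Parp14 (-0.031 to 0.129). Pathway calls were 0 without a filter, with a pseudocount of 5, with the muscle, leukocyte or Y-linked covariates and without the 3 vehicle libraries. With the endothelial covariate they were 8, of which 5 were higher and 3 lower, where 2.14% of all tested genes passed as lower. The share of all tested genes that passed as higher is not given here, so the 8 are not read as a result about the pathway.

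Replicate numbers did not pair the samples: their deviations correlated between -0.418 and 0.583, and numbers 4 and 5 alone correlated best with their own number. With the replicate block 0 members passed and the median was -0.231. Of 923 single-member values, 856 kept sign and call. FPKM carries no depth, so the precision of low members such as Ifi44 and Oas3 is unknown.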
